A study of Mus musculus with 24 samples.

Results

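Fibroblasts of the skin are told apart by a small set of surface and lineage markers, and 10 of them were followed here by name: Cd34, Thy1, Lrig1, Pdgfra, Pdgfrb, Dpp4, Ly6a, Dlk1, Pi16 and Fap. Of these, 9 were among the 13479 genes of the count table, and Dpp4 was not analysed here. A filter on low counts left 7 of the 9 for testing (Cd34, Thy1, Lrig1, Pdgfra, Pdgfrb, Ly6a and Dlk1) out of 11337 genes tested in all. Pi16 and Fap stayed below it and are given as raw counts.

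Transcripts of primary mouse dermal fibroblasts at passage 5 were counted by a bulk form of MARS-seq, which reads the 3′ ends of polyadenylated RNA and collapses PCR copies with unique molecular identifiers (UMIs). Knockout cells (KO) came from mice lacking NIK, a kinase of noncanonical NF-kB signalling, mutant cells (MUT) from mice whose genotype is given as NIK X mut with no further detail, and wild-type cells (WT) from littermates. Each genotype was left untreated or received TWEAK, a member of the TNF family whose receptor is Fn14, for 6 or 24 h at 100 ng/ml. Every time point had 2 KO, 2 MUT and 4 WT libraries, 24 in all. There were no untreated libraries at 6 or 24 h, so time in culture and TWEAK cannot be told apart. Library names give 3 h for the time that the treatment labels call 6 h, which is used here. The labels do not tie replicates to separate mice, so p-values measure the spread between these libraries. The RNA had been extracted with either of a pair of kits, without a record of which sample received which.

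CD34 is a sialomucin of blood progenitors, endothelium and many connective tissue fibroblasts, and THY1 and LY6A (Sca-1) are lipid-anchored surface proteins used to sort mesenchymal cells. In mouse skin LRIG1 marks fibroblasts of the upper, papillary dermis, whereas DLK1 marks the lower, reticular lineage, which also gives rise to dermal adipocytes. PDGFRA and PDGFRB are the receptor tyrosine kinases for platelet-derived growth factors, DPP4 and PI16 mark progenitor-like fibroblasts around vessels and in fascia, and FAP is a surface peptidase of activated fibroblasts.

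The libraries held 889863 to 4342981 UMIs. Map3k14, which encodes NIK, had 4 UMIs over the 6 KO libraries, against 63 to 164 UMIs per MUT library and 34 to 186 per WT library. The cultures had the transcripts of fibroblasts: 16 of 16 general fibroblast genes (collagens, Dcn, Lum, Vim and others) were counted, and together they made up 22696 to 41564 CPM (counts scaled to a library total of 1e6 after TMM normalisation) in every library. Markers of leukocytes, keratinocytes and adipocytes were few. Summed over each list, 3 of 7 leukocyte genes reached 5.20 to 17.3 CPM, 3 of 7 keratinocyte genes 4.04 to 24.4 CPM and 2 of 6 adipocyte genes 3.34 to 15.6 CPM, and Ptprc, Krt5, Krt15, Epcam, Adipoq and Plin1 were not analysed here. Those of pericytes and smooth muscle were not: all 7 genes of that list were counted and summed to 1092 to 6296 CPM. On principal component 1, which held 25.7% of the variance, the libraries fell into sets that no label describes. All KO libraries and those of WT replicates 1 and 2 lay between -39.8 and -6.37, and all MUT libraries and those of WT replicates 3 and 4 between 6.69 and 41.3. MUT and KO thus sit in different sets, and values within each WT set are given below where they bear on a result.

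The promoter windows of 3 markers are shown because the results below turn on them: Cd34 and Lrig1 rose in WT cells after 24 h of TWEAK, and Dlk1 was lower in every WT library at that time. Windows of 6 of the 10 markers were taken from the RefSeq promoter table of build GRCm38.p6. Each ran from 250 bases before the start of the gene to 50 bases after it. The remaining markers are not thereby shown to lack an entry. Cd34 lies at chr1:194938571-194938870 on the plus strand, Lrig1 at chr6:94700096-94700395 on the minus strand and Dlk1 at chr12:109452573-109452872 on the plus strand. Capitals mark the GC box GGGCGG, a binding motif of SP-family factors; the remaining letters are in lower case, 5′ to 3′ along the gene.
Cd34 promoter: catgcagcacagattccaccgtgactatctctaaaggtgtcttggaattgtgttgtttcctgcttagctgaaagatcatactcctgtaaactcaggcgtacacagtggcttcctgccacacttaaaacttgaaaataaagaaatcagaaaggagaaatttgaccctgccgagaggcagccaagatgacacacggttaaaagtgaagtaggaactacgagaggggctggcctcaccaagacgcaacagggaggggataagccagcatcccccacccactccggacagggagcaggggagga
Lrig1 promoter: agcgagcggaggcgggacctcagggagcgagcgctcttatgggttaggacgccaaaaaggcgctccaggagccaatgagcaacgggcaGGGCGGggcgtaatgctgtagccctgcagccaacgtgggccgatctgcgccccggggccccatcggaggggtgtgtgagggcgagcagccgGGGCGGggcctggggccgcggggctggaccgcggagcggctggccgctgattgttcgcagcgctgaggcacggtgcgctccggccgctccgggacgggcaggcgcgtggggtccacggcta
Dlk1 promoter: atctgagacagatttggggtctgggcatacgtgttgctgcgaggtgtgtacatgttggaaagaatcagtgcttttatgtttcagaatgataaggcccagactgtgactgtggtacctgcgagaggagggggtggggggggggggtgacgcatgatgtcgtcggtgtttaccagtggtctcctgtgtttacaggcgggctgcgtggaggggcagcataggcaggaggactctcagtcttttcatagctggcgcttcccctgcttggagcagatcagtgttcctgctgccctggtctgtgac

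Both strands of each window were searched for the kB consensus that NF-kB binds, for GGGCGG and for the TATA box TATAAA, and no matches of different motifs overlapped. Lrig1 held GGGCGG at 2 places, with first bases at -162 and -71 from the start. Neither the kB consensus nor TATAAA matched in the Lrig1 window, and none of the 3 matched in those of Cd34 and Dlk1, which says only that these letters are not in these windows. Among 27025 mouse promoter windows of the same length, the kB consensus was found in 8.18%, GGGCGG in 35.9% and TATAAA in 14.2%. The G and C content was 73.0% for Lrig1, 55.7% for Dlk1 and 50.0% for Cd34, beside a median of 52.7% over all windows.

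After 24 h of TWEAK, WT fibroblasts had more Cd34 and Lrig1 transcript and less Thy1, Ly6a and Pdgfrb than untreated WT cells. These 5 of 7 tested markers passed the quasi-likelihood test of edgeR (p under 0.05 after Benjamini-Hochberg adjustment), 2 higher and 3 lower, where 6.87% of all genes passed (3.68% higher, 3.19% lower). The markers were chosen with earlier results of these data known, so shares of all genes are given for scale and do not test the set. The WT libraries of both times did not overlap for 6 of the 7, against 11.0% of all genes, as Dlk1 was lower in every treated library too. At 6 h, 2 of 7 passed, Lrig1 higher and Pdgfrb lower (6.41% of all genes, 4.35% higher and 2.06% lower). Between 24 and 6 h, 1 of 7 passed, Cd34, which was higher at 24 h (3.87% of all genes, 1.64% higher and 2.23% lower). In bulk cultures a lower level may come from fewer cells of a type or from less RNA per cell, which cannot be told apart. The median log2 change of the 7 markers in WT at 24 h was -0.67 against 0.00 for all genes tested.

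Libraries that do not overlap were also counted in the other comparisons. In WT they did not overlap for 2 of 7 markers at 6 h (7.67% of all genes) and for 1 between 24 and 6 h (7.69%). In MUT they did not overlap for 6 markers at 6 h (54.4% of all genes), for 7 at 24 h (54.7%) and for 5 between these times (59.1%). In KO they did not overlap for 2 markers at 6 h (29.3% of all genes), for 4 at 24 h (33.3%) and for 4 between these times (39.4%). With 2 libraries a group such separation was common over all genes. Before treatment 1 marker separated KO from WT (11.4% of all genes), 3 separated MUT from WT (17.0%) and 5 separated MUT from KO (51.4%).

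With edgeR on all 9 groups together, no marker passed in MUT or KO cells. In MUT edgeR called 0 of 7 at 6 h, 0 at 24 h and 0 between these times, with 1, 4 and 1 at an unadjusted p under 0.05 and 0, 2 and 0 by DESeq2, and the shares of all genes called were 1.98%, 0.688% and 0.582%. In KO the counts were 0, 0 and 0 by either tool, with 0, 0 and 1 at an unadjusted p under 0.05, and 0.0794%, 0.0% and 0.0% of all genes were called. These shares are for edgeR after adjustment and do not apply to the unadjusted or DESeq2 counts. With 2 libraries per time these groups gave wider intervals than WT, as the plot of responses by genotype shows. The MUT calls also depended on the fit. At 24 h edgeR called 3 markers with library sets as separate groups (Cd34, Dlk1 and Lrig1). With only the compared groups, where fewer libraries estimate the spread, it called 5 (Thy1 and Pdgfrb too). The shares of all genes called by these other fits are not given here, so these counts are not read against all genes. A marker past the test in WT and not in MUT or KO is not thereby shown to differ between them, and the differences were tested on their own below.

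**Figure D1:**
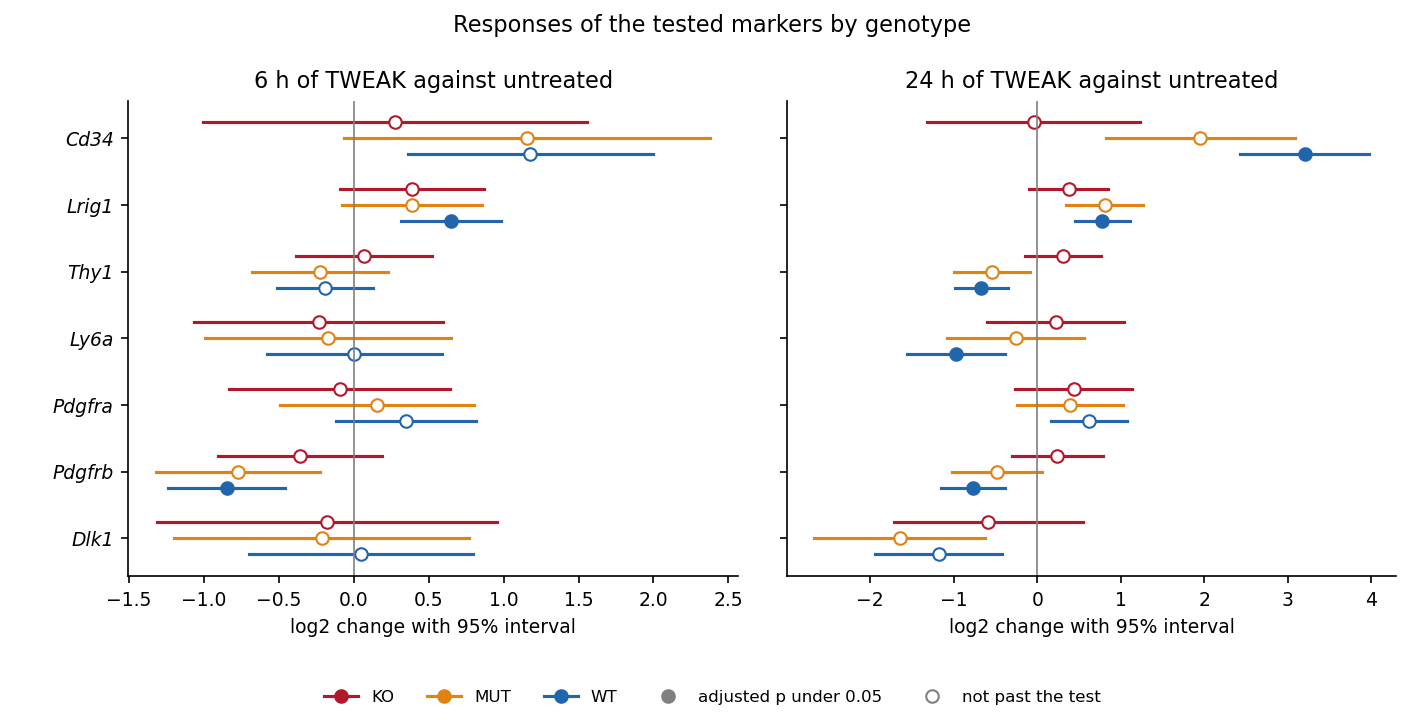
Log2 changes of the 7 tested markers after 6 h (left) and 24 h (right) of TWEAK against untreated cells of the same genotype, with 95% intervals (lines); KO is above MUT and MUT above WT, and filled points passed at an adjusted p under 0.05. Filled points occur in WT alone, for Lrig1 and Pdgfrb at 6 h and for Cd34, Lrig1, Thy1, Ly6a and Pdgfrb at 24 h.

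Cd34 (chromosome 1, 194938819 to 194961279, plus strand, GRCm38) had the largest log2 change of the 7 tested markers in WT at 24 h. Its level was 7.61, 21.9, 10.6 and 8.36 CPM in untreated WT, 20.2, 46.3, 23.7 and 20.1 CPM at 6 h and 107, 210.2, 91.8 and 50.4 CPM at 24 h (replicates 1 to 4 in each case), from 13 to 684 UMIs per library over the series. Every WT library at 24 h lay above every earlier one, and replicate 2 was the highest of the 4 at each time. The change at 24 h against untreated was log2 3.20 ± 0.37 (SE; adjusted p = 4.83e-06), a rise of 9.18-fold (95% interval 5.39 to 15.6). Its log2 change ranged from 2.74 to 3.70 over 32 alternatives, all of which called it, and it was log2 3.40 (adjusted p = 1.37e-05) with WT replicates 1 and 2 alone and log2 2.92 (adjusted p = 2.04e-07) with replicates 3 and 4 alone. Compared with 6 h, Cd34 rose by a further log2 2.02 ± 0.35 (SE; adjusted p = 0.00459). That call was lost with only the compared WT groups in the fit (adjusted p = 0.0958).

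At 6 h the WT change in Cd34 was log2 1.18 ± 0.39 (SE; adjusted p = 0.0831), which did not pass. WT libraries of equal replicate number deviated together over 7289 genes with a mean log2 CPM above 4. With that number as a block the change was log2 1.24 (adjusted p = 0.000213). Each WT replicate was higher at 6 h than its own untreated library, by log2 1.31, 1.05, 1.10 and 1.18, and higher at 24 h, by 3.67, 3.21, 3.01 and 2.47. DESeq2 called the 6 h change (log2 1.19, adjusted p = 0.0426), as did edgeR without untreated WT replicate 2 (log2 1.68, adjusted p = 0.0214), without WT replicate 2 at 24 h (log2 1.19, adjusted p = 0.0295) and without WT replicate 4 at 24 h (log2 1.18, adjusted p = 0.043). Without WT replicate 2 at 6 h it was log2 0.76 and was not called. Of 32 alternatives 7 called the 6 h change, and the adjusted p ran up to 0.306. Cd34 overlaps Gm16897, an antisense gene on the other strand that was not analysed here.

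In MUT cells Cd34 was at 7.25 and 6.87 CPM untreated, 16.2 and 15.6 CPM at 6 h and 25.1 and 29.8 CPM at 24 h, so that the pairs of libraries separated at each step. The changes were log2 1.16 ± 0.59 (SE; adjusted p = 0.407) at 6 h and log2 1.95 ± 0.54 (adjusted p = 0.14) at 24 h. DESeq2 called the 24 h change in MUT (log2 1.97, adjusted p = 0.0335), and so did edgeR without WT replicate 2 at 24 h (log2 1.95, adjusted p = 0.0468). It was also called by edgeR with library sets as separate groups (adjusted p = 0.0130), only the compared groups (0.000215) or the replicate block (0.000139). The 6 h change in MUT was called with only the compared groups (adjusted p = 0.0123) or the block (0.0186). MUT numbers do not pair in that block. In KO cells Cd34 stayed between 11.6 and 15.9 CPM: 11.6 and 14.7 CPM untreated, 15.5 and 15.9 CPM at 6 h and 13.3 and 11.996 CPM at 24 h. The KO change at 24 h was log2 -0.04 ± 0.62 (SE; adjusted p = 1), with a 95% interval of -1.32 to 1.23.

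**Figure D2:**
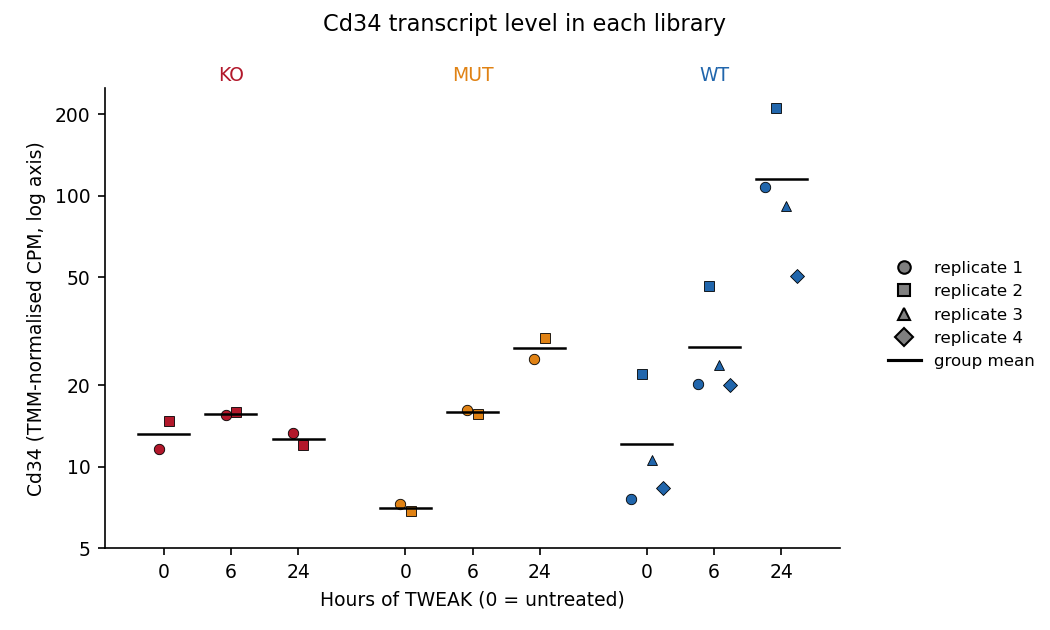
Cd34 level (TMM-normalised CPM, log axis) in each of 24 libraries by genotype and hours of TWEAK; symbols give the replicate number and bars the group mean. KO libraries lie between 11.6 and 15.9 CPM at all times, MUT libraries reach 29.8 CPM and WT libraries reach 210.2 CPM at 24 h.

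The test of the difference in response asked whether Cd34 changed less without NIK. At 24 h the KO response minus the WT response was log2 -3.24 ± 0.72 (SE; adjusted p = 0.0624), with a 95% interval of -4.74 to -1.74. Adjusted over all genes this missed the threshold. Of 33 alternatives 9 called it, among them DESeq2 (log2 -3.28, adjusted p = 0.00119), the fit with the replicate number as a block (log2 -3.28, adjusted p = 4.74e-05) and the fits with WT replicates 1 and 2 alone (log2 -3.44, adjusted p = 0.0134) or 3 and 4 alone (log2 -2.95, adjusted p = 0.00108). Replicate numbers paired the WT libraries but not the KO libraries. The difference was also called without untreated WT replicate 2 (log2 -3.74, adjusted p = 0.0227), without WT replicate 2 at 6 h (log2 -3.24, adjusted p = 0.0368) and without WT replicate 4 at 24 h (log2 -3.48, adjusted p = 0.0167). The MUT response at 24 h differed from that of WT by log2 -1.25 ± 0.66 (SE; adjusted p = 1) and from that of KO by log2 1.99 ± 0.82 (adjusted p = 0.604), and neither passed. At 6 h the KO response differed from WT by log2 -0.90 ± 0.73 (adjusted p = 1) and the MUT response by log2 -0.02 ± 0.82 (adjusted p = 1).

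Ordered by mean, Cd34 was highest in WT at 24 h (115 ± 67.9 CPM, SD, n = 4), apart from every other group. WT at 6 h (27.6 ± 12.6 CPM) and MUT at 24 h (27.4 ± 3.39 CPM) overlapped, as did MUT and KO at 6 h (15.9 ± 0.399 and 15.7 ± 0.319 CPM). Untreated MUT was the lowest at 7.06 ± 0.266 CPM. Since CD34 also marks endothelium, endothelial genes were set beside it. Cdh5, Kdr, Tek and Vwf, 4 of 7 on that list, summed to 15.1 to 15.99 CPM in KO, 10.2 to 13.9 CPM in MUT and 13.1 to 42.7 CPM in WT at 24 h, against 15.1 to 16.8, 9.49 to 10.3 and 7.72 to 15.8 CPM in the same genotypes untreated. Cdh5, an adhesion molecule of endothelial junctions, rose in WT at 24 h by log2 1.56 ± 0.41 (adjusted p = 0.0225). Kdr was at 1.60 ± 1.01 CPM in WT at 24 h against 3.17 ± 0.950 CPM untreated, Vwf was at 0 in 1 or more libraries of both groups, and Pecam1, Emcn and Tie1 were not analysed here. The part of these genes in the Cd34 result was not tested. Of the other sialomucins of its family, Podxl2 was counted and did not pass in WT at either time.

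Lrig1 (chromosome 6, 94604529 to 94700158, minus strand) encodes a transmembrane protein that restrains ErbB receptors and marks the papillary dermis. It was at 94.0, 106, 142 and 137 CPM in untreated WT, 211, 229.7, 148 and 161 CPM at 6 h and 221, 207, 191 and 199.8 CPM at 24 h, with no overlap between treated and untreated libraries. The rise was log2 0.65 ± 0.16 (SE; adjusted p = 0.0167) at 6 h and log2 0.78 ± 0.16 (adjusted p = 0.00344) at 24 h. With WT replicates 1 and 2 alone the change was log2 1.14 (adjusted p = 0.00117) at 6 h and log2 1.10 (adjusted p = 0.000755) at 24 h, whereas replicates 3 and 4 alone gave log2 0.16 (adjusted p = 0.599) and log2 0.50 (adjusted p = 0.0608), and the difference between these pairs was not tested. The 6 h call was also lost without untreated WT replicate 1 (adjusted p = 0.0547), untreated WT replicate 2 (0.0586) or WT replicate 2 at 6 h (0.0533). With only the compared WT groups in the fit it was lost too (0.136).

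MUT libraries held 134 and 100.1 CPM of Lrig1 untreated, 159 and 148 CPM at 6 h and 209 and 201 CPM at 24 h. KO libraries held 100.5 and 134 CPM untreated, 157 and 149 CPM at 6 h and 139 and 163 CPM at 24 h. In both genotypes each treated library lay above each untreated one. The changes at 24 h were log2 0.81 ± 0.22 (adjusted p = 0.135) in MUT, called by DESeq2 (log2 0.81, adjusted p = 0.0357), and log2 0.37 ± 0.23 (adjusted p = 1) in KO. The KO response minus the WT response was log2 -0.40 ± 0.28 (adjusted p = 0.796), and the MUT response differed by log2 0.03 ± 0.27 (adjusted p = 1). Untreated libraries overlapped between genotypes, with means of 117 ± 23.5, 117 ± 24.1 and 119.8 ± 23.5 CPM in KO, MUT and WT. The 3′ end of Lrig1 overlaps that of Slc25a26 on the opposite strand, which had 699 UMIs against 8765 for Lrig1 over all libraries, and whether counting used the strand is not given in the sources used here.

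Among LRIG and ErbB genes, 6 were counted and 5 tested. Lrig3 fell in WT at 6 h, with a change of log2 -0.83 ± 0.19 (adjusted p = 0.00799) and Met, the receptor of hepatocyte growth factor, rose at 24 h by log2 1.55 ± 0.40 (adjusted p = 0.0207). The remaining tested genes of this list did not pass in WT at 6 or 24 h, and none passed in MUT or KO at those times. The list's median log2 change in WT at 24 h was 0.08 against 0.00 for all genes tested.

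Thy1 (chromosome 9, 44043384 to 44048579, plus strand), which encodes the CD90 glycoprotein, was at 1771, 1371, 1869.8 and 1558 CPM in untreated WT, 1726, 1199.7, 1555 and 1269 CPM at 6 h and 1209, 758, 1123 and 1044 CPM at 24 h. The WT libraries at 24 h lay below all untreated ones. The fall was log2 -0.67 ± 0.16 (SE; adjusted p = 0.0093) at 24 h, and the 6 h value of log2 -0.19 ± 0.15 (adjusted p = 0.567) did not pass. Between 24 and 6 h the WT change was log2 -0.48 ± 0.16 (adjusted p = 0.0879), and with the replicate number as a block it passed at log2 -0.48 (adjusted p = 0.00432). Of 32 alternatives 3 called that change. Within the sets the 24 h change was log2 -0.67 (adjusted p = 0.0926) for WT replicates 1 and 2 and log2 -0.65 (adjusted p = 0.0129) for replicates 3 and 4. With only the compared WT groups in the fit the 24 h call was lost (adjusted p = 0.0558).

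MUT libraries had 1958 and 1776 CPM of Thy1 untreated, 1598 and 1594 CPM at 6 h and 1245 and 1319.9 CPM at 24 h, lower at each time than at the one before. KO libraries had 1170.4 and 1105 CPM untreated, 1023 and 1359 CPM at 6 h and 1271 and 1534 CPM at 24 h, and both KO libraries at 24 h lay above both untreated ones. The changes at 24 h were log2 -0.54 ± 0.22 (adjusted p = 0.369) in MUT and log2 0.30 ± 0.22 (adjusted p = 1) in KO. The KO response at 24 h minus that of WT was log2 0.97 ± 0.27 (SE; adjusted p = 0.203), with a 95% interval of 0.41 to 1.53, and did not pass except in 3 of 33 alternatives, among them WT replicates 3 and 4 alone (log2 0.95, adjusted p = 0.0384) and the replicate block (log2 0.97, adjusted p = 0.0058), in which KO numbers do not pair. Before treatment Thy1 was at 1138 ± 46.1 CPM in KO and 1643 ± 223 CPM in WT, a difference of log2 -0.53 ± 0.19 (adjusted p = 0.965) without overlap of libraries. Against WT replicates 3 and 4 alone, the other set, that difference passed at log2 -0.59 (adjusted p = 0.0263), and the set and the genotype cannot be told apart there. By mean level neighbouring groups overlapped throughout, from 1867 ± 129 CPM in untreated MUT to 1033 ± 196 CPM in WT at 24 h.

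Ly6a (chromosome 15, 74994877 to 74998031, minus strand), which encodes Sca-1, was at 502, 733, 540.1 and 369.8 CPM in untreated WT, 811, 695, 384 and 269.6 CPM at 6 h and 357, 311, 272 and 153 CPM at 24 h. All WT libraries at 24 h lay below the untreated ones, and at 6 h replicates 1 and 2 were high while 3 and 4 were low. The fall at 24 h was log2 -0.97 ± 0.28 (SE; adjusted p = 0.0393), and the 6 h change of log2 0.00 ± 0.28 (adjusted p = 0.997) did not pass. It was called in 24 of 32 alternatives, the fewest among the 5 markers called. The adjusted p was 0.155 without untreated WT replicate 2, 0.0655 without untreated WT replicate 3 and 0.0531 without WT replicate 2 at 24 h. It was 0.0856 without WT replicate 3 at 24 h, 0.125 without WT replicate 4 at 24 h and 0.0751 with only the compared WT groups in the fit. The call was also lost without KO replicate 1 at 6 h (log2 -0.97) or KO replicate 2 at 24 h (log2 -0.97), each leaving 1 library in that KO group. Within each set it passed, at log2 -0.88 (adjusted p = 0.0157) and log2 -1.07 (adjusted p = 0.00554). Between 24 and 6 h the change was log2 -0.97 ± 0.28 (adjusted p = 0.0566), and with the replicate number as a block log2 -0.93 (adjusted p = 0.000437). That change also passed without untreated WT replicate 2 (log2 -0.98, adjusted p = 0.0466), WT replicate 4 at 6 h (log2 -1.20, adjusted p = 0.0268) or WT replicate 1 at 24 h (log2 -1.13, adjusted p = 0.0428). In all, 7 of 32 alternatives called it.

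In MUT cells Ly6a was at 526 and 498 CPM untreated, 482 and 429 CPM at 6 h and 464 and 391 CPM at 24 h, and in KO cells at 475 and 311 CPM untreated, 358 and 313 CPM at 6 h and 473 and 443 CPM at 24 h. The changes at 24 h were log2 -0.26 ± 0.39 (adjusted p = 0.891) in MUT and log2 0.22 ± 0.40 (adjusted p = 1) in KO. The KO response minus the WT response was log2 1.19 ± 0.49 (SE; adjusted p = 0.549) at 24 h, with a 95% interval of 0.18 to 2.20, and did not pass. With the replicate number as a block, which pairs WT but not KO libraries, it passed at log2 1.25 (adjusted p = 0.0156). Ly6a belongs to a family of similar genes, and how reads shared between them were counted is not given in the sources used here. Of 4 other counted members of the wider LY6 family, Ly6c1 had a lower level in WT at 24 h, with a change of log2 -1.85 ± 0.29 (adjusted p = 0.000214) and Ly6e, which encodes an interferon-inducible surface protein, rose by log2 0.57 ± 0.15 (adjusted p = 0.0176). Plaur, the urokinase receptor, rose at 6 h by log2 1.88 ± 0.41 (adjusted p = 0.00643). Ly6c1 was at 46.0 ± 6.29 CPM in KO, 37.5 ± 0.808 CPM in MUT and 21.3 ± 2.94 CPM in WT at 24 h, against 50.0 ± 23.2, 78.2 ± 7.42 and 76.2 ± 41.3 CPM untreated.

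**Figure D3:**
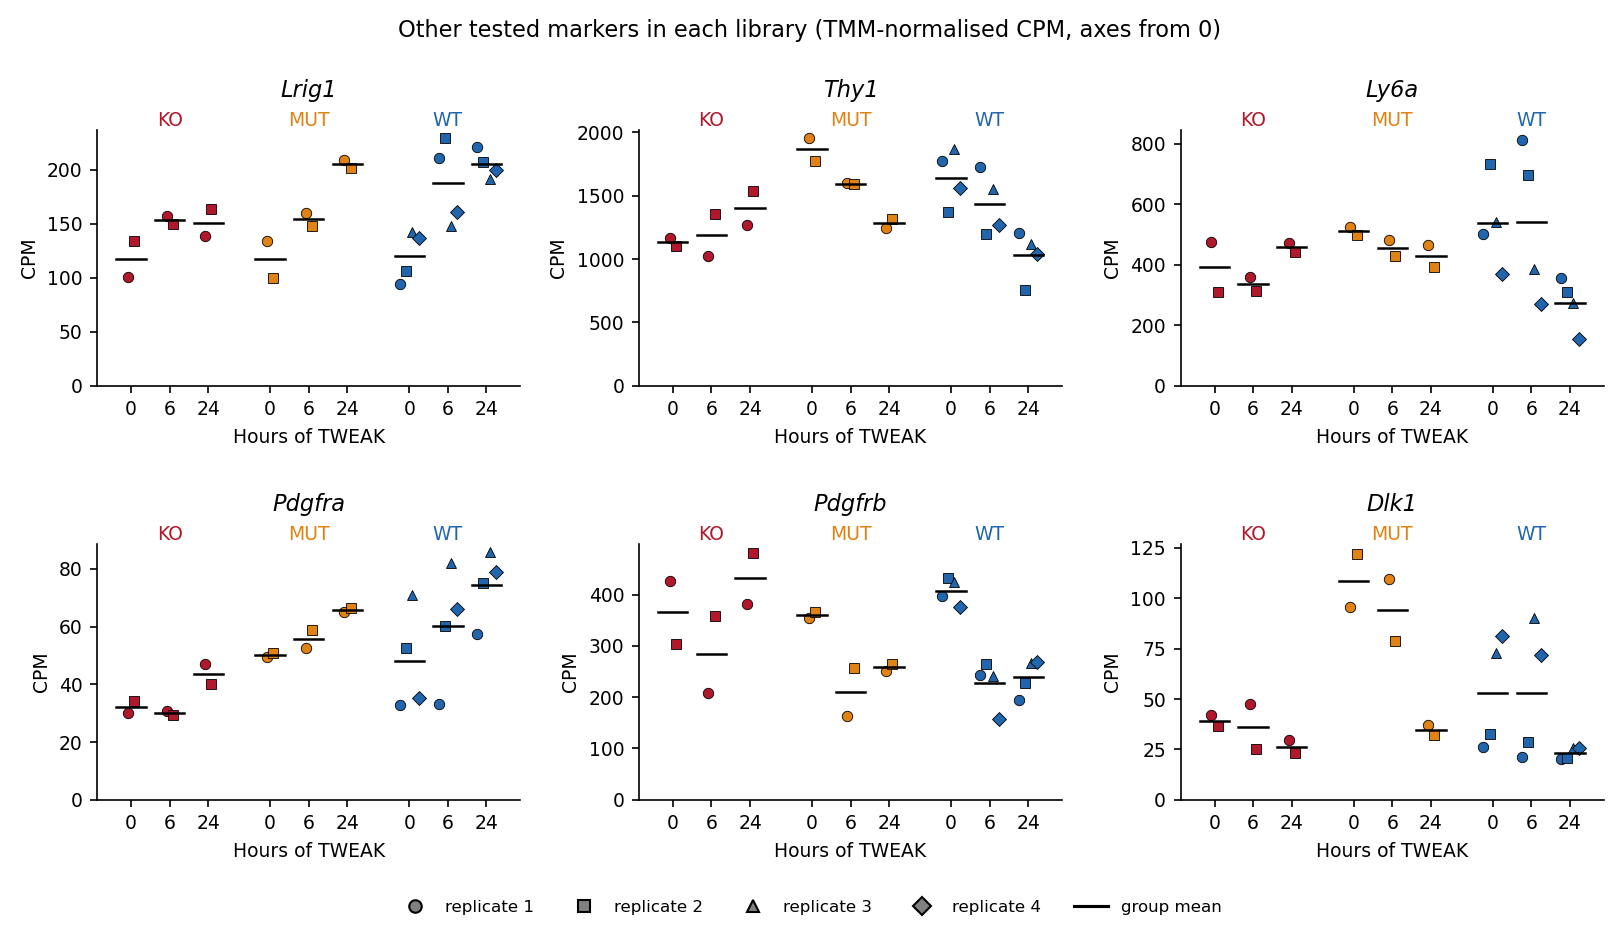
Levels (TMM-normalised CPM, linear axes from 0) of Lrig1, Thy1, Ly6a, Pdgfra, Pdgfrb and Dlk1 in each library by genotype and hours of TWEAK; symbols give the replicate number and bars the group mean. In WT, libraries at 24 h lie above the untreated ones for Lrig1 and below them for Thy1, Ly6a, Pdgfrb and Dlk1, while those of Pdgfra overlap.

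Of the genes of both PDGF receptors, Pdgfrb fell in WT. Pdgfrb (chromosome 18, 61045150 to 61085061, plus strand), which also marks pericytes, was at 397, 431, 425 and 376 CPM untreated, 243, 265, 242 and 158 CPM at 6 h and 194, 227, 267 and 268 CPM at 24 h, with no overlap of treated and untreated libraries. It fell at 6 h, with a change of log2 -0.85 ± 0.19 (adjusted p = 0.00716), and was also lower at 24 h, with log2 -0.77 ± 0.19 (adjusted p = 0.0123). The change between these times was log2 0.08 ± 0.19 (adjusted p = 0.884). Within the sets the change at 24 h was log2 -0.97 (adjusted p = 0.021) for WT replicates 1 and 2 and log2 -0.57 (adjusted p = 0.149) for replicates 3 and 4. At 6 h it was log2 -0.70 (adjusted p = 0.157) and log2 -0.998 (adjusted p = 0.00632).

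MUT libraries had 355 and 366 CPM of Pdgfrb untreated, 164 and 257 CPM at 6 h and 252 and 265 CPM at 24 h, lower after TWEAK in each. KO libraries had 426 and 304 CPM untreated, 208 and 359 CPM at 6 h and 382 and 482 CPM at 24 h and overlapped between treated and untreated. The MUT changes were log2 -0.77 ± 0.26 (adjusted p = 0.155) at 6 h and log2 -0.48 ± 0.26 (adjusted p = 0.555) at 24 h, and those of KO log2 -0.36 ± 0.26 (adjusted p = 1) and log2 0.24 ± 0.26 (adjusted p = 1). The KO response minus the WT response at 24 h was log2 1.01 ± 0.32 (SE; adjusted p = 0.314), with a 95% interval of 0.34 to 1.68, and did not pass. Among pericyte genes Mcam, a surface adhesion molecule, had a change of log2 -1.18 ± 0.28 (adjusted p = 0.0123) in WT at 24 h, the 1 of 5 tested genes of that list to pass there, and the summed list was at 1092 to 3610.0 CPM in WT at 24 h against 2063 to 6296 CPM untreated. The part of that list in the Pdgfrb result was not tested.

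Pdgfra (chromosome 5, 75152292 to 75198215, plus strand), a marker of most fibroblasts, was at 32.7, 52.8, 70.9 and 35.4 CPM in untreated WT, 33.2, 60.2, 82.0 and 66.0 CPM at 6 h and 57.4, 75.3, 85.7 and 78.8 CPM at 24 h. The groups overlapped, with untreated replicate 3 above the lowest treated library at 24 h. The 6 h change of log2 0.35 ± 0.23 (adjusted p = 0.453) did not pass. The change at 24 h was log2 0.62 ± 0.22 (SE; adjusted p = 0.0961), and with the replicate number as a block log2 0.65 (adjusted p = 0.00255). Each WT replicate was higher at 24 h than its own untreated library, by log2 0.79, 0.51, 0.27 and 1.14. The 24 h change also passed without untreated WT replicate 3 (log2 0.87, adjusted p = 0.0176) or WT replicate 1 at 6 h (log2 0.62, adjusted p = 0.0474). In all, 4 of 32 alternatives called it. MUT libraries had 49.3 and 51.0 CPM untreated, 52.7 and 58.8 CPM at 6 h and 64.9 and 66.5 CPM at 24 h, and KO libraries 30.2 and 34.3 CPM untreated, 30.9 and 29.4 CPM at 6 h and 47.0 and 40.0 CPM at 24 h. The changes at 24 h were log2 0.39 ± 0.30 (adjusted p = 0.725) in MUT and log2 0.44 ± 0.34 (adjusted p = 1) in KO. Before treatment KO differed from WT by log2 -0.59 ± 0.29 (adjusted p = 0.965) and MUT from KO by log2 0.64 ± 0.32 (adjusted p = 0.401), and neither passed.

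All 4 genes of PDGF ligands were tested. Pdgfb, which encodes a ligand of both receptors, was at 0.723 ± 1.02 CPM in KO, 18.4 ± 6.18 CPM in MUT and 33.9 ± 30.5 CPM in WT at 6 h, against 0.647 ± 0.915, 0.561 ± 0.132 and 1.59 ± 0.967 CPM untreated. It rose in WT by log2 4.50 ± 0.68 (adjusted p = 0.000184) at 6 h and log2 2.703 ± 0.72 (adjusted p = 0.0243) at 24 h, and in MUT by log2 4.97 ± 1.06 (adjusted p = 0.0149) at 6 h. The untreated groups held few UMIs of it (3 in KO, 4 in MUT and 14 in WT), so the fitted sizes rest on few counts. Pdgfa, Pdgfc and Pdgfd did not pass in WT, MUT or KO at 6 or 24 h.

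Dlk1 (chromosome 12, 109452823 to 109463336, plus strand) encodes a membrane protein with EGF-like repeats that holds back adipocyte differentiation. WT libraries had 26.3, 32.8, 72.6 and 81.0 CPM untreated, 21.3, 28.7, 90.1 and 71.7 CPM at 6 h and 20.01, 20.9, 25.7 and 25.7 CPM at 24 h, and before 24 h replicates 3 and 4 were high and 1 and 2 low. At 24 h all 4 WT libraries were below all untreated ones. The change was log2 -1.18 ± 0.37 (SE; adjusted p = 0.0551), and with the replicate number as a block it passed at log2 -1.06 (adjusted p = 0.00169). Of 32 alternatives 9 called this change. Within the sets it was log2 -0.53 (adjusted p = 0.302) for WT replicates 1 and 2 and log2 -1.56 (adjusted p = 0.000141) for replicates 3 and 4. DESeq2 called it (log2 -1.20, adjusted p = 0.026), and it passed without untreated WT replicate 1 (log2 -1.41, adjusted p = 0.0192), untreated WT replicate 2 (log2 -1.36, adjusted p = 0.0431), WT replicate 1 at 6 h (log2 -1.18, adjusted p = 0.0331), WT replicate 2 at 6 h (log2 -1.18, adjusted p = 0.0383) or WT replicate 3 at 6 h (log2 -1.18, adjusted p = 0.0387).

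Between 24 and 6 h the WT change in Dlk1 was log2 -1.23 ± 0.37 (adjusted p = 0.0681), with the block log2 -1.05 (adjusted p = 0.00414), and the 6 h change against untreated was log2 0.05 ± 0.36 (adjusted p = 0.974). The change from 6 h passed without untreated WT replicate 1 (log2 -1.24, adjusted p = 0.0431), WT replicate 1 at 6 h (log2 -1.45, adjusted p = 0.0235) or WT replicate 2 at 6 h (log2 -1.46, adjusted p = 0.0255). In all, 7 of 32 alternatives called it. MUT libraries had 95.6 and 122 CPM of Dlk1 untreated, 109.6 and 78.8 CPM at 6 h and 37.0 and 32.2 CPM at 24 h, with both 24 h libraries far below the rest. KO libraries had 41.8 and 36.4 CPM untreated, 47.4 and 25.1 CPM at 6 h and 29.5 and 23.0 CPM at 24 h. The changes at 24 h were log2 -1.65 ± 0.49 (adjusted p = 0.184) in MUT and log2 -0.59 ± 0.54 (adjusted p = 1) in KO, and the KO response differed from that of WT by log2 0.60 ± 0.66 (adjusted p = 0.886). By edgeR the MUT change passed with library sets as separate groups (adjusted p = 0.000138) and with only the compared groups in the fit (5.95e-05). It also passed with the replicate block (0.00125), although MUT numbers do not pair. The same fits called the MUT change between 24 and 6 h.

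**Figure D4:**
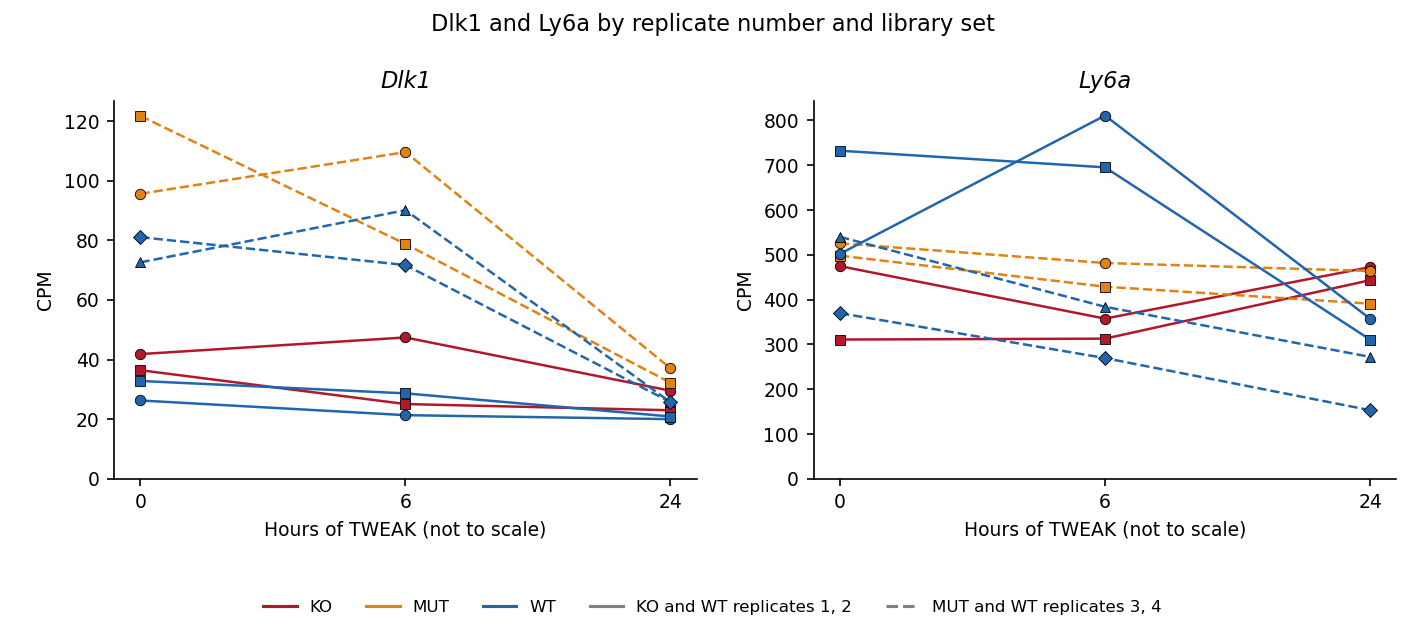
Dlk1 (left) and Ly6a (right) in CPM over hours of TWEAK, with lines joining libraries of 1 genotype and replicate number; solid lines are KO and WT replicates 1 and 2, dashed lines MUT and WT replicates 3 and 4. Dlk1 before 24 h is at 71.7 CPM or more on all dashed lines and at 47.4 CPM or less on all solid ones, while at 24 h every library lies between 20.01 and 37.0 CPM.

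Before treatment Dlk1 was at 39.1 ± 3.83 CPM in KO, 109 ± 18.5 CPM in MUT and 53.2 ± 27.6 CPM in WT (SD, n = 2, 2 and 4). MUT differed from WT by log2 1.05 ± 0.40 (SE; adjusted p = 0.679) and from KO by log2 1.46 ± 0.50 (adjusted p = 0.287), and neither passed. Against WT replicates 1 and 2 alone, the other set, the MUT difference passed at log2 1.87 (adjusted p = 0.000116), while against replicates 3 and 4, its own set, it was log2 0.50 (adjusted p = 0.547). For KO the difference was log2 -0.95 (adjusted p = 0.0141) against WT replicates 3 and 4, the other set. Against WT replicates 1 and 2, its own set, KO was higher instead, at 39.1 CPM against 29.5 CPM, a difference of log2 0.41 that did not pass, and with all 4 WT libraries it was log2 -0.41 ± 0.45 (adjusted p = 0.966). The 12 proliferation genes summed to 242 to 263 CPM in untreated KO and 802 to 840.5 CPM in untreated MUT. Top2a was at 113 to 139 CPM in untreated MUT and 133 to 140.1 CPM in untreated WT replicates 3 and 4, against 32.3 to 49.0 CPM in KO and 28.2 to 30.6 CPM in WT replicates 1 and 2. At 24 h the same list reached 1223 to 1239 CPM in MUT while Dlk1 was low there, and the part of proliferation in the Dlk1 level was not tested.

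DLK1 resembles ligands of the Notch receptors, so that pathway was set beside it. Of 7 tested Notch and DLK genes 1 passed in WT at 24 h: Hes1, a repressor that Notch signalling induces, fell at 6 h and further by 24 h. It was at 228 ± 40.6 CPM in KO, 116 ± 15.3 CPM in MUT and 96.1 ± 4.67 CPM in WT at 24 h, against 273 ± 60.9, 189 ± 2.08 and 235 ± 25.8 CPM untreated. The WT changes of Hes1 were log2 -0.65 ± 0.15 (adjusted p = 0.00853) at 6 h, log2 -1.29 ± 0.15 (adjusted p = 4.83e-06) at 24 h and log2 -0.64 ± 0.15 (adjusted p = 0.0217) between these times. The list's median in WT at 24 h was -0.38 against 0.00 for all genes tested.

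Pi16 and Fap were close to the floor of detection, with 45 and 76 UMIs over all 24 libraries, so they were not tested. Pi16 (chromosome 17, 29317680 to 29330593, plus strand), a peptidase inhibitor of adventitial fibroblasts, had 1, 9, 0 and 1 UMIs in the untreated WT libraries, 0, 4, 3 and 1 at 6 h and 0, 0, 1 and 2 at 24 h, of which replicate 2 held most before treatment. Pooled, this was 0.265 UMIs per 1e6 (95% exact Poisson interval 0.0546 to 0.774) at 24 h in WT against 1.14 UMIs per 1e6 (95% exact Poisson interval 0.568 to 2.03) untreated, a ratio of 0.233 (95% exact interval 0.0417 to 0.882). That ratio rests on untreated WT replicate 2, without which 3 UMIs at 24 h stood against 2 untreated and the ratio was 0.875 (95% exact interval 0.100 to 10.5). Without WT replicate 4 at 24 h it was 0.0923 (95% exact interval 0.00215 to 0.635). MUT libraries had 1 and 0 UMIs at 24 h against 3 and 4 untreated, and KO libraries 1 and 0 against 3 and 2, with ratios of 0.180 (95% exact interval 0.00400 to 1.402) and 0.203 (95% exact interval 0.00430 to 1.82). A count of 0 allows up to 3 UMIs in a library, and these intervals cover counting error only, not the spread between libraries.

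Fap (chromosome 2, 62500943 to 62574075, minus strand) had 2, 5, 5 and 6 UMIs in the untreated WT libraries, 1, 5, 4 and 3 at 6 h and 1, 3, 3 and 1 at 24 h. The pooled WT level was 0.706 UMIs per 1e6 (95% exact Poisson interval 0.305 to 1.39) at 24 h against 1.86 UMIs per 1e6 (95% exact Poisson interval 1.10 to 2.94) untreated, a ratio of 0.380 (95% exact interval 0.143 to 0.917). Leaving out 1 WT library gave Fap ratios of 0.310 to 0.477, with upper bounds of 0.767 to 1.27. In MUT there were 5 and 4 UMIs at 24 h against 6 and 7 untreated with a ratio of 0.873 (95% exact interval 0.329 to 2.21). In KO replicate 1 had no UMI at any time and replicate 2 had 5, 1 and 2 UMIs untreated, at 6 h and at 24 h. Other peptidases of the DPP4 family, Dpp3, Dpp7, Dpp8 and Dpp9, were tested, and edgeR called 0 of 4 in WT at 6 or 24 h (0 and 2 at an unadjusted p under 0.05), with a median of -0.16 against 0.00 for all genes tested at 24 h.

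**Figure D5:**
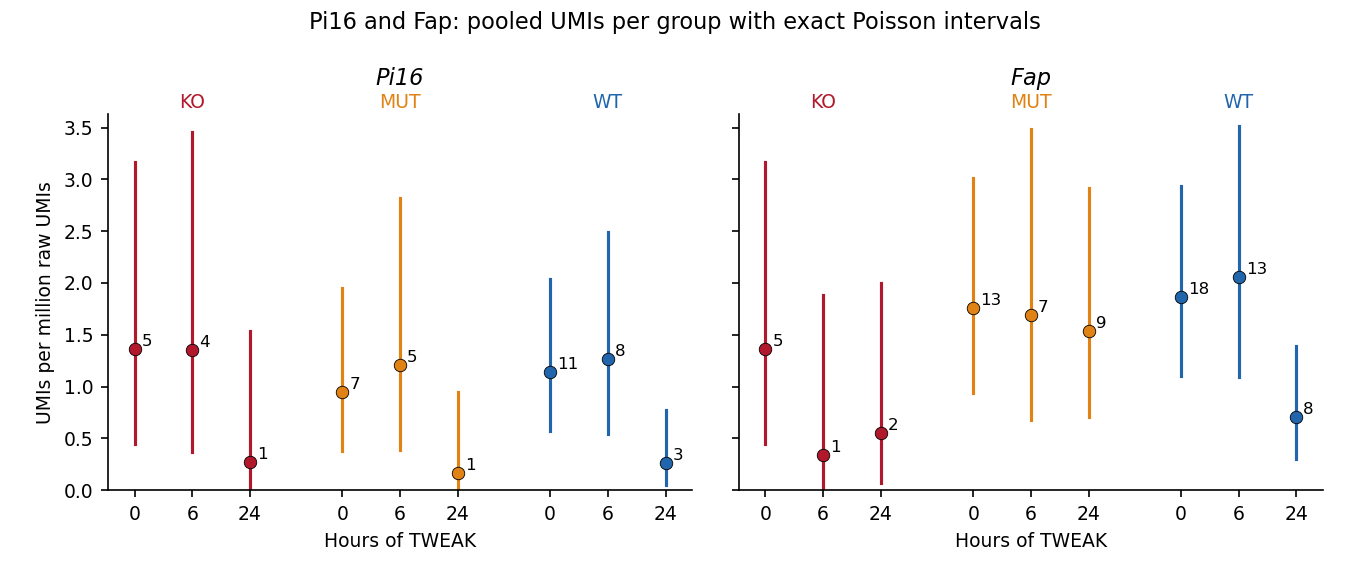
Pooled Pi16 (left) and Fap (right) UMIs per 1e6 raw UMIs in each group, with exact 95% Poisson intervals that cover counting error only and the number of UMIs beside each point; KO, MUT and WT are each shown at 0, 6 and 24 h of TWEAK. WT at 24 h has 3 UMIs of Pi16 and 8 of Fap, against 11 and 18 in untreated WT.

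The markers were set beside wider lists of the same lineages. Like the markers, these lists were chosen with earlier results of these data known, so their counts are not independent of that choice. Of papillary genes, 4 were tested and 3 rose in WT at 24 h, as Lrig1 did: Pdpn by log2 0.72 ± 0.17 (adjusted p = 0.00902), Lef1, a mediator of Wnt signalling, by log2 1.99 ± 0.49 (adjusted p = 0.0142), and Ntn1 by log2 0.98 ± 0.28 (adjusted p = 0.0358). Pdpn and Lef1 had already risen at 6 h, by log2 0.67 ± 0.17 (adjusted p = 0.0183) and log2 1.82 ± 0.53 (adjusted p = 0.0437). Lef1 rested on 45 UMIs in WT at 24 h and 9 untreated. In KO Pdpn was at 104 ± 0.933 CPM at 24 h and 76.6 ± 3.31 CPM untreated, in MUT at 106 ± 13.7 and 74.7 ± 2.56 CPM, and in WT at 141 ± 31.8 and 86.1 ± 12.5 CPM. The list's median in WT at 24 h was 0.85 against 0.00 for all genes tested. edgeR called 0 of 4 in MUT and 0 of 4 in KO at 24 h, where the medians were 0.74 and 1.44 and 1 and 2 genes had an unadjusted p under 0.05.

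Reticular and adipogenic genes, the lineage that DLK1 marks, had 0 of 9 past the test by edgeR in WT at 24 h (3 at an unadjusted p under 0.05), with a median of -0.37 against 0.00 for all genes tested. Their summed level was 211 to 239.5 CPM in untreated KO, 606 to 657 CPM in untreated MUT and 171 to 796 CPM in untreated WT. Of 9 tested genes of adventitial progenitor fibroblasts, the class that Pi16, Dpp4 and Ly6a mark, 2 fell in WT at 24 h, Ly6c1 (given above) and Igfbp6 with a change of log2 -0.85 ± 0.21 (adjusted p = 0.0149), and the median was -0.20 against 0.00 for all genes tested. Wnt2 rose at 6 h by log2 1.68 ± 0.46 (adjusted p = 0.028) and was lower at 24 h than at 6 h, with a change of log2 -2.98 ± 0.51 (adjusted p = 0.00459), from 19 UMIs in untreated WT, 41 at 6 h and 9 at 24 h. Among 16 general fibroblast genes 2 fell in WT at 24 h, Sparc and Col5a1, with changes of log2 -0.55 ± 0.14 (adjusted p = 0.019) and log2 -0.84 ± 0.23 (adjusted p = 0.0297), and the median was -0.34 against 0.00 for all genes tested. The summed level of that list was 22696 to 31220.1 CPM in WT at 24 h against 29569 to 39905 CPM untreated.

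Responses of the markers at 24 h were tested between genotypes with 1 contrast per pair. Of 7 markers edgeR called 0 in KO against WT (4 at an unadjusted p under 0.05, 1 by DESeq2), 0 in MUT against WT (0 and 0) and 0 in MUT against KO (2 and 0), where 0.265%, 0.0% and 0.0% of all genes passed. At 6 h the counts were 0 in all 3 pairs by either tool, with 0 at an unadjusted p under 0.05 in each, where 0.097%, 0.0% and 0.0% of all genes passed. In untreated cells edgeR called 0 in KO against WT, 0 in MUT against WT and 0 in MUT against KO, with 1, 1 and 2 at an unadjusted p under 0.05 and 0 by DESeq2 in each, where 0.00882%, 0.0% and 0.00882% of all genes passed. All these shares are for edgeR after adjustment, and those for an unadjusted p or DESeq2 are not given here. The comparisons with WT share their WT libraries.

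Over the 24 libraries, which share genotypes, times and sets, the log2 CPM of Cd34 correlated with that of Lrig1 at r = 0.72, Pdgfra at 0.58, Ly6a at -0.37, Pdgfrb at -0.51, Dlk1 at -0.56 and Thy1 at -0.73. Among 8411 genes with a mean of at least 10 CPM, those most like Cd34 over the 24 libraries (Pearson's r in parentheses) were Tmem51 (0.88), Tapbp (0.87) and Cd82 (0.87), and over the 9 group means Hyal2 (0.96), Mthfd2l (0.96) and Cd82 (0.95). Over the 24 libraries they were Mlkl (0.91), Psme2 (0.89) and Psmb10 (0.88) for Lrig1, Cst3 (0.85), Slc6a17 (0.79) and Msrb1 (0.79) for Thy1, Wdr6 (0.88), Cacna1a (0.86) and Twist1 (0.83) for Pdgfrb and Gnpda2 (0.81), Ly6c1 (0.80) and Slc41a3 (0.79) for Ly6a. Ly6c1 was among the 3 genes most like Ly6a over the 9 group means too (0.92).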

How the data were processed

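Bulk MARS-seq was run on 24 libraries of primary dermal fibroblasts (9 groups of genotype and time). The authors deposited UMI counts per gene in 1 table. Per the submitters' processing notes, cutadapt, STAR 2.7.10a, HTSeq and DESeq2 were used with build GRCm38, and the strand setting of the counting is not given in the sources used here. The highest count of a gene over the libraries was never under 6, so rarer transcripts cannot be assessed, and 48 other value columns were not used. The counts were tested with edgeR 4.0.16 (R 4.3.3, limma 3.58.1): filterByExpr kept 11337 of 13479 genes and left out 2142, libraries were scaled by TMM, and 1 quasi-likelihood model held all 9 groups with 18 contrasts. CPM use TMM-scaled totals, and log2 CPM of single libraries a prior count of 2. Fitted changes use the default prior count of edgeR. Adjusted p-values are Benjamini-Hochberg values over all genes tested. The model was tested on simulated data. The SE of a fitted change is its absolute log2 value divided by the square root of the F statistic of the test. Intervals of fitted changes use that SE with a t distribution, and both are approximate, above all for genes with few UMIs. Intervals are at 95%, and those on pooled UMIs cover counting error only. WT libraries share replicate numbers across times and deviated together, with correlations of 0.328 to 0.688 and each number correlating best with itself, so blocked values are given beside WT results, and beside KO against WT responses, where they change a call. In MUT each number also correlated best with itself, but only at 0.00108 to 0.0710. In KO the correlations ran from -0.282 to 0.0996. Neither was read as paired. Alternatives were RLE size factors, no filter, DESeq2 1.42.0, only the compared groups, library sets as groups, either WT set alone, the replicate block and each library left out. A block with KO numbers crossed and, for Pi16 and Fap, each library left out were chosen after seeing the data. Promoter windows came from a RefSeq table. The members and the 17 gene lists were chosen with earlier results of these data known. Named beside the members were Map3k14, at most 3 called genes per list and contrast with the smallest adjusted p, and, for each member called at least once, the 3 genes with the highest correlation. Kdr, Tek and Vwf, Top2a before treatment, and genes not analysed were named as markers whatever their values.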

Additional observations from a re-analysis of the deposited data

Results flagged for a closer look

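Cd34 in WT at 6 h had 1 library far from the others of its group: replicate 2 was at 46.3 CPM, and the nearest of the other 3 libraries at 23.7 CPM. The gap was 0.862 of the range of the group. Such a gap was looked for in 27 groups of 4 WT libraries, and chance gives it in about 1 of 20. Replicate 2 also had the highest Cd34 level in untreated WT (21.9 CPM) and in WT at 24 h (210.2 CPM).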

How the results depend on the processing

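Over all alternatives 3934 values of single markers were computed: 3833 stayed on the same side of the threshold, 82 gained a call, 19 lost one and 0 called values changed sign. The sign turned in 136 of the 3833, which passed neither way. RLE size factors and no filter moved no count of called markers by over 1.5 times. The counts below are of the 7 tested markers, without the share of all genes called by the same fit. With only the compared groups in the fit, 1 marker was called in WT at 6 h, 3 at 24 h and 0 between these times, where fewer libraries estimate the spread. The same setting called 2 in MUT at 6 h, 5 at 24 h, 3 between these times and 2 between untreated MUT and KO. With WT replicates 1 and 2 only, the counts were 1 in WT at 6 h, 2 between 24 and 6 h, 1 for the KO against WT response at 24 h and 1 for untreated MUT against WT. With WT replicates 3 and 4 only, they were 2 between 24 and 6 h in WT, 2 for untreated KO against WT and 2 for the KO against WT response at 24 h. DESeq2 called 4 between 24 and 6 h in WT, 2 in MUT at 24 h and 1 for the KO against WT response at 24 h. With library sets as separate groups the counts were 4 between 24 and 6 h in WT, 3 in MUT at 24 h, 1 in MUT between 24 and 6 h and 1 for the KO against WT response at 24 h. The cause of these shifts was not tested. With the replicate block, 4 were called between 24 and 6 h in WT, 1 in MUT at 6 h, 4 in MUT at 24 h, 1 in MUT between 24 and 6 h and 3 for the KO against WT response at 24 h. MUT and KO replicate numbers did not pair, and untreated genotypes share no block. With KO numbers crossed in the block, 4 were called for the KO against WT response and 2 for the MUT against KO response at 24 h. Leaving out 1 library gave 1 to 3 called markers in WT at 6 h, 4 to 7 at 24 h, 1 to 2 between these times, 0 to 1 in MUT at 24 h and 0 to 1 for the KO against WT response at 24 h, and 0 in each other comparison. Where this leaves MUT or KO with 1 library, it is assumed to vary like the other groups. Among genes that are no markers, 4 values reversed with WT replicates 1 and 2 only: Ivl was log2 -2.10 at 6 h and 0 between 24 and 6 h, Cspg4 0.11 and Plaur 0.0495 between 24 and 6 h. Depth limits Pi16, Fap, Pdgfb and Lef1, which had few UMIs per library.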

Other observations

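Of the lists of other cell types, Ivl, a protein of the cornified envelope of keratinocytes, passed in WT at 6 h with a change of log2 3.54 ± 1.04 (adjusted p = 0.0437), at 6.50 ± 7.96 CPM against 0.614 ± 0.569 CPM untreated. With WT replicates 1 and 2 only the Ivl change had the opposite sign, at log2 -2.10 (adjusted p = 0.793), so no direction common to the WT libraries is given. Lyz2, a lysozyme of myeloid cells, fell in WT at 24 h, with a change of log2 -1.44 ± 0.39 (adjusted p = 0.028), at 2.06 ± 1.18 CPM against 5.59 ± 2.05 CPM untreated. The Schwann cell and melanocyte list, 4 of 7 counted, summed to 7.11 to 26.4 CPM over all libraries, and neither of its 2 tested genes passed edgeR in WT at 6 or 24 h (0 at an unadjusted p under 0.05). The 2 tested adipocyte genes did not pass there either, with 0 and 1 at an unadjusted p under 0.05. Of the 12 proliferation genes 3 rose in WT between 6 and 24 h, Top2a, Mcm5 and Mki67, by log2 1.82 ± 0.47 (adjusted p = 0.0303), log2 1.54 ± 0.42 (adjusted p = 0.039) and log2 2.20 ± 0.62 (adjusted p = 0.0475), and all 12 had positive changes.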
